A study of Homo sapiens with 6 samples.

Results

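SST, GNRH1, NPY, PENK, TAC1, CRH, CARTPT, GAL and VIP, which encode precursors of signalling peptides, and NPY2R, which encodes a receptor for neuropeptide Y, were followed across all libraries of a knockdown experiment. They are 10 of the 59151 genes in the deposited table, and all 10 had a value in every library. They were chosen by symbol with their FPKM values in these same 6 libraries, and their differences between the groups, already known, so their levels and differences are given as a description; those that entered the fit across all genes are counted there, and no p-value of theirs is given or used.

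The libraries came from forebrain neuron progenitor cells at day 26, also labelled forebrain neurons, grown from H9, a long-established line of human embryonic stem cells. There were 3 groups of 2 libraries: a control treated with a scramble sequence in cells labelled wild type, and 2 short hairpin RNAs, shRNA1 and shRNA2, against circRTN4(2,3), a circular transcript of the reticulon gene RTN4. Every group was thus treated, with scramble or with a hairpin, and the labels describe no untreated group. The series states as its purpose the study of what circRTN4(2,3) does in these cells. The replicates are numbered, with no word on separate cultures, so every p-value measures the spread between libraries, which may be technical.

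Neuropeptides are made as larger precursors, cut by convertases inside the secretory pathway, stored in dense core vesicles and released to act on G protein-coupled receptors. In the forebrain, SST and NPY are known from subsets of inhibitory interneurons, and VIP marks another subset. GNRH1 is known from a small population of neurons that arise outside the brain and drive the reproductive axis from the hypothalamus.

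Levels are FPKM, in which the fragments of a gene are divided by its length and by the size of the library. Library totals, recovered from the steps between low values, were 46634855 and 77187298 reads with scramble, 82353637 and 78488667 with shRNA1, and 83629504 and 79949303 with shRNA2. At these totals 3 reads on 1 kilobase correspond to 0.0359 to 0.0643 FPKM. The median SD of a gene on the log2 scale was 0.109 between the scramble libraries, 0.0355 with shRNA1 and 0.0452 with shRNA2. RTN4, the host gene, read 40.3 and 38.5 FPKM with scramble, 34.2 and 34.7 with shRNA1, and 31.2 and 31.3 with shRNA2. For RTN4 the scramble libraries were thus the highest pair, and a value per gene mixes reads of the linear and the circular transcripts, so it does not measure the circle. RTN4 was not among the genes called in any of the 4 comparisons (limma with Benjamini-Hochberg adjustment).

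The labelled cell type was read against marker lists. Among forebrain progenitor markers, NES, an intermediate filament of neural progenitors, read 46.5 to 56.3 FPKM over the 6 libraries, and SOX2, a progenitor transcription factor, had means of 31.9, 28.8 and 31.9 with scramble, shRNA1 and shRNA2. The means of PAX6 (3.24, 2.45 and 2.23 FPKM), OTX1 (1.91, 1.12 and 1.20) and EMX2 (7.11, 5.73 and 6.41), named after their values were seen, were ordered differently, with all 4 knockdown libraries below both of the control. None of these 5 genes was called in any comparison. The 8 neuron markers summed to 341 to 349 FPKM with scramble, 359 to 364 with shRNA1 and 310 to 311 with shRNA2, with RBFOX3, a marker of mature neurons, at 0.440 to 0.715. The 8 inhibitory interneuron markers summed to 87.2 and 105 with scramble, 103 and 101 with shRNA1, and 85.6 and 80.8 with shRNA2. LHX6, a factor of interneurons from the medial ganglionic eminence, SST interneurons included, was at 0.0664 to 0.123. No hypothalamic marker reached a mean of 1 FPKM, and 5 of the 8 averaged under 0.1, with OTP and SIM1 at or below 0.0376 and 0.00939. NKX2-1 read 0.316 and 0.459 with scramble and 0.588 to 0.623 with the hairpins. RAX read 0.391 and 0.640 with scramble and at most 0.0161 with the hairpins. POMC read 0.0828 to 0.194 over the 6 libraries.

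Promoters of the precursor genes are shown because a cAMP response element, the site bound by CREB, is the classic element of the SST promoter. A promoter was present for 6 of the 10 genes in the RefSeq table (GRCh38.p14), which runs from 250 bases before to 50 bases after each start. The element TGACGTCA, which reads the same on both strands, lay in the promoters of SST, at -47 from the start, and CARTPT, at -143, and 1.85% of 35116 promoters of this length hold it. Its first 5 bases, TGACG or CGTCA on the other strand, overlap the full element, occur in 24.6% of promoters and lay at -197 in TAC1 and at -89 and -79 in VIP. The letters of neither motif occurred in the windows of NPY and NPY2R. The stretches below are from SST (chr3:187670400-187670549, minus strand), TAC1 (chr7:97731836-97731907, plus strand), CARTPT (chr5:71719025-71719162, plus strand) and NPY (chr7:24284013-24284162, plus strand), with the matched letters in capitals; NPY is given as the one without a match.
SST: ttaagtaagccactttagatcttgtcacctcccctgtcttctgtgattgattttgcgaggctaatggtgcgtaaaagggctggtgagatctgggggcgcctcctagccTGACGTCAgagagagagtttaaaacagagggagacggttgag
TAC1: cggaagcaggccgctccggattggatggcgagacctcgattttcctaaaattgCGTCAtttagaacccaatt
CARTPT: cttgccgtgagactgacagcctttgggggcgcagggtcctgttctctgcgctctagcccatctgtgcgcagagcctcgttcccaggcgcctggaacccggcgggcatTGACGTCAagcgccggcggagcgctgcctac
NPY: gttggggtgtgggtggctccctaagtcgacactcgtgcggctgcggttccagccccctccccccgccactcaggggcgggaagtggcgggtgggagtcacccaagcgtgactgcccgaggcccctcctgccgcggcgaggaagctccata

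By mean, every peptide precursor except GNRH1 was lowest with shRNA2. Both shRNA2 libraries lay below the other 4 in SST, NPY, TAC1 and CRH, and in CARTPT and VIP on few reads. GNRH1 stood in the opposite order to SST. SST (somatostatin, an inhibitory peptide; chr3:187668912-187670394) read 2.41 and 3.48 FPKM with scramble, 2.15 and 1.59 with shRNA1, and 0.435 and 0.475 with shRNA2. The groups did not overlap, and the shRNA2 libraries stood far below the other 4. The group means were 2.94 ± 0.756, 1.87 ± 0.395 and 0.455 ± 0.0282 FPKM (SD, n = 2), so that the scramble mean was 6.47 times the shRNA2 mean and 1.57 times the shRNA1 mean. These levels rest on 71 and 169.67 reads with scramble, 112 and 79 with shRNA1, and 23 and 24 with shRNA2. Pooled over each pair of libraries, the 95% Poisson intervals were 2.70 to 3.49, 1.62 to 2.17 and 0.334 to 0.605 FPKM and did not overlap. Intervals from reads cover counting error only. In RNA from a whole culture, fewer cells that make a peptide and less RNA in each cell cannot be told apart.

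On the log2(FPKM + 1) scale, the SST difference from scramble was -0.45 ± 0.16 (SE) with shRNA1 and -1.43 ± 0.16 with shRNA2, and shRNA2 differed from shRNA1 by -0.97 ± 0.16. The pseudocount understates the change of a gene at this level, and with 0.1 FPKM in its place the shRNA2 difference was -2.43. The scramble libraries of SST lay further apart than those of the other groups. Leaving out the first or the second gave shRNA2 differences of -1.62 and -1.23, and shRNA1 differences of -0.65 and -0.25.

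TAC1, the precursor of substance P and neurokinin A (chr7:97732086-97740472), was the most abundant of the genes with scramble. It read 19.7 and 18.2 FPKM with scramble, 17.0 and 17.5 with shRNA1, and 11.6 and 11.7 with shRNA2. Both hairpins lay below scramble in every library, and the shRNA1 values stood close under the lower scramble value. The log2 difference from scramble was -0.12 ± 0.057 with shRNA1 and -0.65 ± 0.057 with shRNA2, and the scramble mean of 18.9 ± 1.07 FPKM was 1.62 times the shRNA2 mean of 11.7 ± 0.0961 (SD, n = 2). The small shRNA1 difference of TAC1 moved to -0.07 when scramble replicate 1 was left out, to -0.18 when replicate 2 was, and to -0.07 under quantile normalization.

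NPY, the precursor of neuropeptide Y (chr7:24284190-24291862), read 0.745 and 1.11 FPKM with scramble, 1.15 and 0.789 with shRNA1, and 0.299 and 0.190 with shRNA2. The scramble and shRNA1 libraries overlapped and the shRNA2 libraries lay below all 4. The pooled intervals were 0.801 to 1.17 with scramble, 0.820 to 1.14 with shRNA1 and 0.173 to 0.339 FPKM with shRNA2, from 111, 144 and 37 reads. CRH, which encodes the stress hormone releasing factor corticoliberin, was likewise low with shRNA2. It read 0.417 and 0.504 FPKM with scramble, 0.440 and 0.400 with shRNA1, and 0.180 and 0.116 with shRNA2. The scramble mean was 3.80 times the shRNA2 mean for NPY and 3.11 times for CRH, against 6.47 times for SST, while NPY and CRH with shRNA1 differed from scramble by less than the spread of the libraries.

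GAL, the galanin precursor, had means of 0.282, 0.140 and 0.0971 FPKM with scramble, shRNA1 and shRNA2, also in descending order. It read 0.305 and 0.259 FPKM with scramble, 0.173 and 0.108 with shRNA1, and 0.0644 and 0.130 with shRNA2. Both hairpins lay below scramble, and the hairpins overlapped with each other. The pooled intervals were 0.201 to 0.371 with scramble, 0.0948 to 0.202 with shRNA1 and 0.0593 to 0.148 with shRNA2, from 44.5, 29.5 and 20.5 reads, so the first 2 overlapped narrowly. PENK, the enkephalin precursor, read 0.0881 and 0.178 FPKM with scramble, 0.172 and 0.170 with shRNA1, and 0.118 and 0.0815 with shRNA2. The scramble libraries of PENK spanned nearly the whole range of the other 4, and no difference from scramble was detectable at this depth.

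CARTPT and VIP were at the limit of detection. CARTPT, the precursor of cocaine- and amphetamine-regulated transcript peptide, read 0.0529 and 0.0426 FPKM with scramble, 0.130 and 0.0943 with shRNA1, and 0 and 0.0206 with shRNA2. These are 3 and 4, 13 and 9, and 0 and 2 reads, and the pooled intervals of scramble (0.0187 to 0.0958) and shRNA1 (0.0705 to 0.170) overlapped. Apart from GNRH1, CARTPT was the one precursor in which both shRNA1 libraries lay above both scramble libraries. VIP, the precursor of vasoactive intestinal peptide, rested on 1 to 4 reads in each library, at 0.00533 to 0.0231 FPKM, and no fold is given for either gene.

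GNRH1, the precursor of gonadotropin-releasing hormone, was highest with shRNA2. It read 11.9 and 11.6 FPKM with scramble, 14.6 and 14.4 with shRNA1, and 20.7 and 19.7 with shRNA2. The groups did not overlap, with shRNA1 between the others, and the replicates were close. The log2 difference from scramble was 0.28 ± 0.049 with shRNA1 and 0.73 ± 0.049 with shRNA2, and shRNA2 exceeded shRNA1 by 0.45 ± 0.049. The shRNA2 mean of 20.2 ± 0.661 FPKM was 1.72 times the scramble mean of 11.8 ± 0.187 (SD, n = 2). The counting intervals of the pooled libraries, 11.3 to 12.2, 14.1 to 14.9 and 19.7 to 20.7 FPKM, did not overlap.

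The annotation places KCTD9, on the same strand, 3193 bases from GNRH1, and the strand setting of the read counting is not given in the sources used here. KCTD9 read 2.31 and 1.78 FPKM with scramble, 2.11 and 2.04 with shRNA1, and 1.89 and 2.14 with shRNA2, so its groups overlapped where those of GNRH1 did not. DOCK5, on the opposite strand 1178 bases away, read 1.159 and 1.145 FPKM with scramble, 1.159 and 1.097 with shRNA1, and 1.237 and 1.211 with shRNA2. Its shRNA2 libraries were the highest, as those of GNRH1 were, by a far smaller step. AC091185.1, a lincRNA 867 bases away on the same strand, was not analysed here. GNRHR, the receptor of the GNRH1 peptide, read 0.762 to 0.975 FPKM with scramble, 0.917 to 1.03 with shRNA1 and 1.03 to 1.07 with shRNA2.

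NPY2R, the receptor in the set (chr4:155173723-155217076), is a presynaptic inhibitory receptor for neuropeptide Y. It read 0.663 and 0.804 FPKM with scramble, 1.21 and 1.27 with shRNA1, and 2.23 and 2.18 with shRNA2. The groups did not overlap and stood in the order of GNRH1, while its ligand gene NPY was lowest with shRNA2. The log2 difference from scramble was 0.37 ± 0.070 with shRNA1 and 0.89 ± 0.070 with shRNA2, and the shRNA2 mean was 3.00 times the scramble mean. In GENCODE v29, NPY2R overlaps 2 genes of the antisense type, AC097467.3 on its own strand and AC104407.1 on the opposite strand. PENK overlaps AC012349.1 on the opposite strand. Without a known strand setting, reads of the opposite-strand genes cannot be told apart from those of NPY2R and PENK. For AC097467.3 a strand setting would not separate them either.

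**Figure D1:**
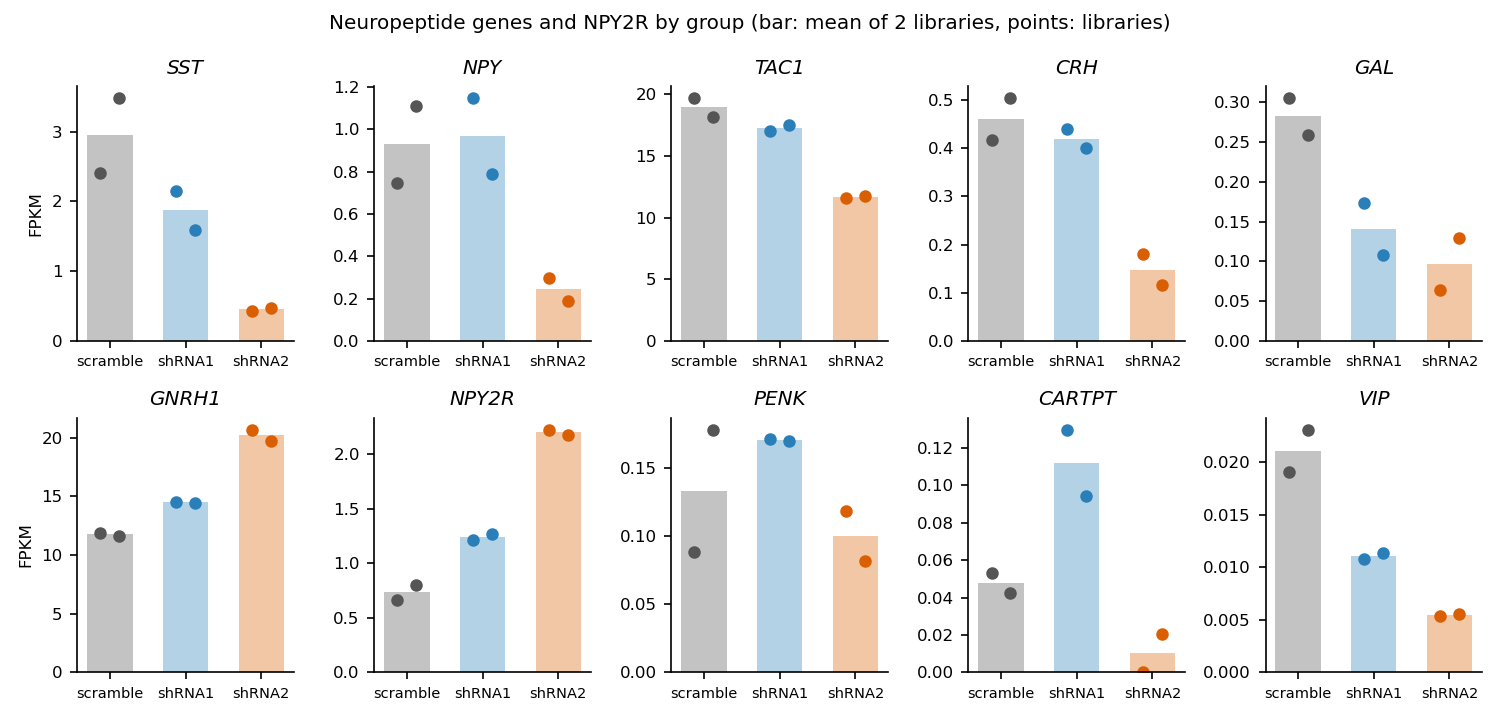
FPKM of the 9 precursor genes and NPY2R in each of the 6 libraries (points) with the mean of 2 libraries as a bar, on a linear axis from 0 for each gene. By mean, every precursor except GNRH1 is lowest with shRNA2, though the shRNA2 libraries of GAL and PENK overlap those of another group. GNRH1 and NPY2R are highest with shRNA2, and both shRNA1 libraries of CARTPT lie above its other libraries.

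By mean level over the 6 libraries, the order from lowest to highest was VIP (0.0126 FPKM), CARTPT (0.0567), PENK (0.135), GAL (0.173), CRH (0.343), NPY (0.713), NPY2R (1.39), SST (1.76), GNRH1 (15.5) and TAC1 (16.0). GNRH1 and TAC1, neighbours at the top, changed places: TAC1 was the higher in every scramble and shRNA1 library and GNRH1 in both shRNA2 libraries. SST was above NPY2R in every scramble and shRNA1 library and below it in both shRNA2 libraries. Over the 6 libraries, the ranges of every pair of neighbours in this order overlapped except those of SST and GNRH1.

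**Figure D2:**
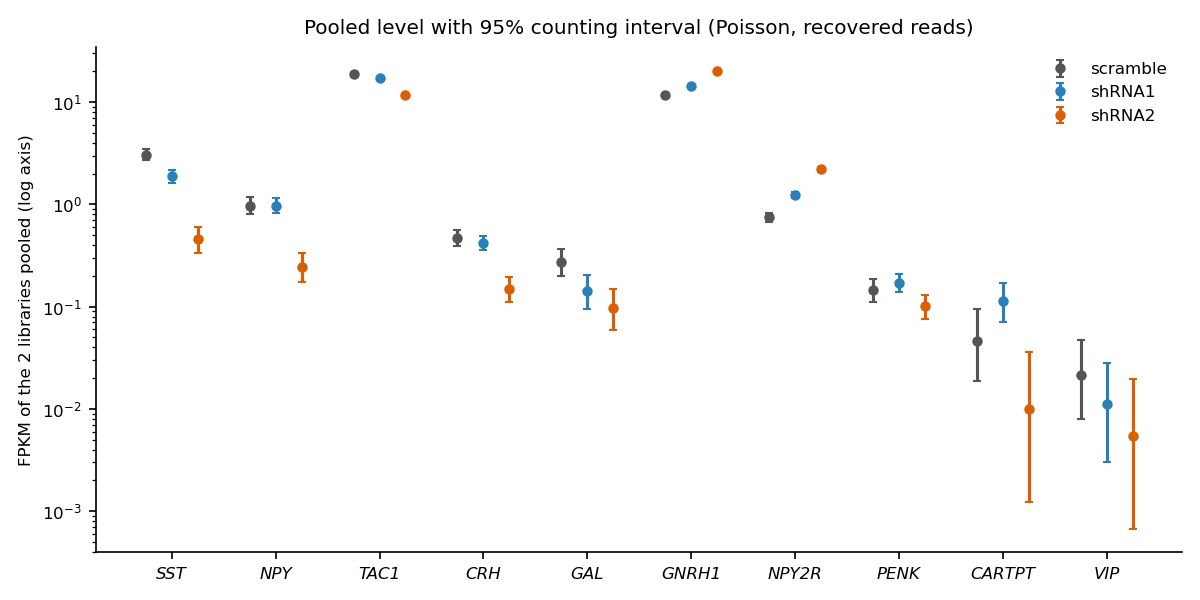
FPKM of the 2 libraries of each group pooled (points, log axis) with the 95% Poisson interval of the recovered reads (bars) for each gene. The shRNA2 intervals of SST, NPY, CRH, TAC1 and GAL lie below those of scramble, and those of GNRH1 and NPY2R lie above. The intervals of CARTPT and VIP are wide because they rest on at most 13 reads in a library.

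Of the 10 genes, 4 passed the filter of a mean of 1 FPKM that the fit across all genes required (SST, GNRH1, NPY2R and TAC1). The nearest below it was NPY at 0.713. SST lay below 1 FPKM with shRNA2 and NPY2R with scramble, so each passed only through the other groups. With shRNA2 against scramble, these 4 were among the 114 genes called of 18162 tested, which is 0.628% of them (limma, Benjamini-Hochberg adjusted p under 0.05). Without a filter (pseudocount 1 or 0.1 FPKM), or with a replicate block, no gene was called with shRNA2, these 4 included. With shRNA1 none of the 4 was among the called genes, 0.033% of those tested. None of the 4 was called with both hairpins together, where 0.0826% of genes were, or with shRNA2 against shRNA1, where no gene was called. At an unadjusted p under 0.05, 3 of the 4 passed with shRNA1, beside 8.97% of all genes tested. All 4 did so with shRNA2, with both hairpins together and with shRNA2 against shRNA1, beside 19.2%, 13.8% and 16.1%. Because the genes were picked with these values known, nothing is read from these counts.

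Separation of the libraries gave a description over all 10 genes. With both hairpins together, 4 genes lay below both scramble libraries in all 4 knockdown libraries (SST, TAC1, GAL and VIP) and 2 lay above (GNRH1 and NPY2R). Of the tested genes 12.6% lay below and 5.87% above in this way, and of 32612 genes with a mean of 0.01 to 1 FPKM 7.75% and 8.1%. With shRNA2, 7 genes lay below both scramble libraries in both libraries (SST, NPY, TAC1, CRH, CARTPT, GAL and VIP), 2 lay above (GNRH1 and NPY2R) and PENK overlapped. Of the tested genes 34.4% lay below and 13.3% above, and of the genes of lower mean 17.6% and 19.4%. With shRNA1, 4 genes lay below (SST, TAC1, GAL and VIP) and 3 above (GNRH1, NPY2R and CARTPT), against 18.9% and 15.8% of tested genes and 15.7% and 18.2% of those of lower mean. With shRNA2 against shRNA1, 7 lay below and 2 above, against 46.6% and 16.6% of tested genes and 20.9% and 18.5% of those of lower mean, and GAL overlapped. These comparisons share libraries, so their counts are not independent.

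For the other genes of the peptide system, 6 lists were drawn up from general knowledge, with earlier results of these data known, so their calls are not independent support for the members' values. With both hairpins together against scramble, no gene of these lists was called. With shRNA2 alone, 5 were, at adjusted p-values of 0.0358 to 0.0499 (limma, Benjamini-Hochberg), and with shRNA1 alone none was. At an unadjusted p under 0.05 (limma), both hairpins together gave 1 other precursor, 1 receptor, 5 processing genes, 0 degrading enzymes, 5 transcription factors and 3 genes of GnRH neuron development, and shRNA1 alone gave 1, 0, 6, 0, 3 and 6 in the same order. With shRNA2 alone the counts were 1, 1, 9, 0, 5 and 4, and between the hairpins 1, 1, 12, 1, 4 and 4. The lists held 4, 1, 22, 6, 13 and 14 tested genes. Over all tested genes the shares were 13.8% with both hairpins together, 8.97% with shRNA1, 19.2% with shRNA2 and 16.1% between the hairpins, and the 5 calls with shRNA2 stand beside 0.628%.

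Of 39 other neuropeptide precursors, 36 were in the table and 4 were tested, and with shRNA2 1 fell and none rose. TRH, the precursor of thyrotropin-releasing hormone, read 4.10 and 5.44 FPKM with scramble, 2.85 and 2.61 with shRNA1, and 1.65 and 1.75 with shRNA2. The 3 groups were separate and in the order of SST. The log2 difference of TRH with shRNA2 was -1.09 ± 0.12 (limma, Benjamini-Hochberg adjusted p = 0.0496), and with shRNA1 -0.62 ± 0.12 (limma, adjusted p = 0.301). NMU (neuromedin U), NUCB2 (the nesfatin precursor) and HCRT (the orexin precursor) did not pass, with shRNA2 differences of 0.15, -0.15 and 0.47. The median of the 4 was 0.0022 with shRNA2 and -0.09 with shRNA1, beside -0.06 and -0.003 over all tested genes.

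Of 23 receptors and binding proteins of these peptides, 21 were in the table and SSTR1 alone was tested. SSTR1, a somatostatin receptor, read 1.54 and 2.01 FPKM with scramble, 1.68 and 1.39 with shRNA1, and 0.432 and 0.446 with shRNA2. The scramble and shRNA1 libraries overlapped and the shRNA2 libraries were lower, as in NPY and CRH. SSTR1 fell with shRNA2 by 0.94 on the log2 scale, with an SE of 0.11 (limma, Benjamini-Hochberg adjusted p = 0.0499). Its mean over the 6 libraries was 1.25 FPKM, so it passed the filter of 1 FPKM only through scramble and shRNA1. The call is therefore not independent of the filter.

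The list of precursor processing and dense core vesicle genes was the most abundant: 22 of 25 were tested, with sums of 142 and 156 FPKM with scramble, 173 and 174 with shRNA1, and 133 and 128 with shRNA2. SYT4, a synaptotagmin of dense core vesicles, was the gene of this list that passed. It read 9.32 and 8.24 FPKM with scramble, 9.28 and 9.31 with shRNA1, and 4.58 and 4.72 with shRNA2, a log2 difference of -0.79 ± 0.068 with shRNA2 (limma, Benjamini-Hochberg adjusted p = 0.0358). With shRNA2, 4 of the 22 differences were positive and their median was -0.16, and with shRNA1 18 were positive and the median was 0.10. Between the hairpins, 1 of 22 was positive, with a median of -0.30 beside -0.06 over all tested genes.

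The 4 most abundant genes of that list did not pass in any comparison. CPE, carboxypeptidase E, which trims the cut peptides, had means of 29.3, 30.4 and 24.9 FPKM with scramble, shRNA1 and shRNA2. SCG3, secretogranin III of the vesicle core, had means of 16.3, 17.0 and 13.6. VGF, a granin-like precursor, had means of 21.4 ± 8.26, 32.2 ± 1.08 and 20.2 ± 2.90 (SD, n = 2), so that its scramble libraries alone spanned most of the range. PAM, the enzyme that amidates peptide ends, differed in its order, with 10.5, 12.3 and 11.7.

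None of the 12 peptide-degrading enzymes was called in any comparison, with 6 tested and a median of -0.11 with shRNA2 and -0.02 with shRNA1. The most abundant were NLN (neurolysin), LNPEP, PREP (prolyl endopeptidase) and IDE (insulin-degrading enzyme), with shRNA2 differences of -0.11, -0.11, -0.13 and -0.05. Of 18 transcription factors known to act on SST or GNRH1, 17 were in the table, 13 were tested and none was called (5 at an unadjusted limma p under 0.05 with shRNA2, beside 0 of the enzymes), with a median of -0.03 with shRNA2 and 0.00074 with shRNA1. DLX1 and DLX2, interneuron homeobox factors, had shRNA2 differences of -0.04 and -0.19. Further from 0, and named after their values were seen, were DLX5 (-0.44), PAX6 (-0.39) and OTX2 (0.30). Below the filter, SIX6 read 0.369 and 0.595 FPKM with scramble and at most 0.0215 with the hairpins. MSX1 read 1.18 and 1.75 against 0.447 to 0.710, and MSX2 1.18 and 1.32 against 0.341 to 0.491. SIX3, a homeobox factor that acts on the GNRH1 promoter, and TLE4, a Groucho family corepressor, had 0.01 and 0.14.

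Among 20 genes of GnRH neuron development 14 were tested, and with shRNA2 1 rose and 1 fell. SEMA3A, a guidance cue for GnRH neuron axons, read 3.90 and 3.18 FPKM with scramble, 2.78 and 2.72 with shRNA1, and 1.60 and 1.59 with shRNA2. NRP1, a co-receptor of SEMA3A, read 5.38 and 5.25 with scramble, 7.07 and 6.86 with shRNA1, and 7.60 and 7.62 with shRNA2. The cue and its co-receptor thus stood in opposite orders, and NRP1 shared the order of GNRH1. The log2 differences with shRNA2 were -0.81 ± 0.088 for SEMA3A (limma, Benjamini-Hochberg adjusted p = 0.0494) and 0.45 ± 0.048 for NRP1 (limma, Benjamini-Hochberg adjusted p = 0.0489). The list's median was -0.0033 with shRNA2 and 0.01 with shRNA1. CHD7, HS6ST1 and IL17RD, genes of inherited GnRH deficiency, did not pass, with shRNA2 differences of -0.06, -0.08 and 0.13.

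These 5 calls were near the threshold and did not hold under most other settings. TRH and SSTR1 kept theirs in 5 of 15 alternatives each, SEMA3A in 3 of 15, and SYT4 and NRP1 in 6 of 16. Without shRNA1 replicate 1 or 2, the adjusted p of the 5 genes (limma, Benjamini-Hochberg) was 0.191 to 0.216. Without shRNA2 replicate 1 or 2 it was 0.321 to 0.373. Over the alternatives it ran from 0.0174 to 0.373, and no direction changed.

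**Figure D3:**
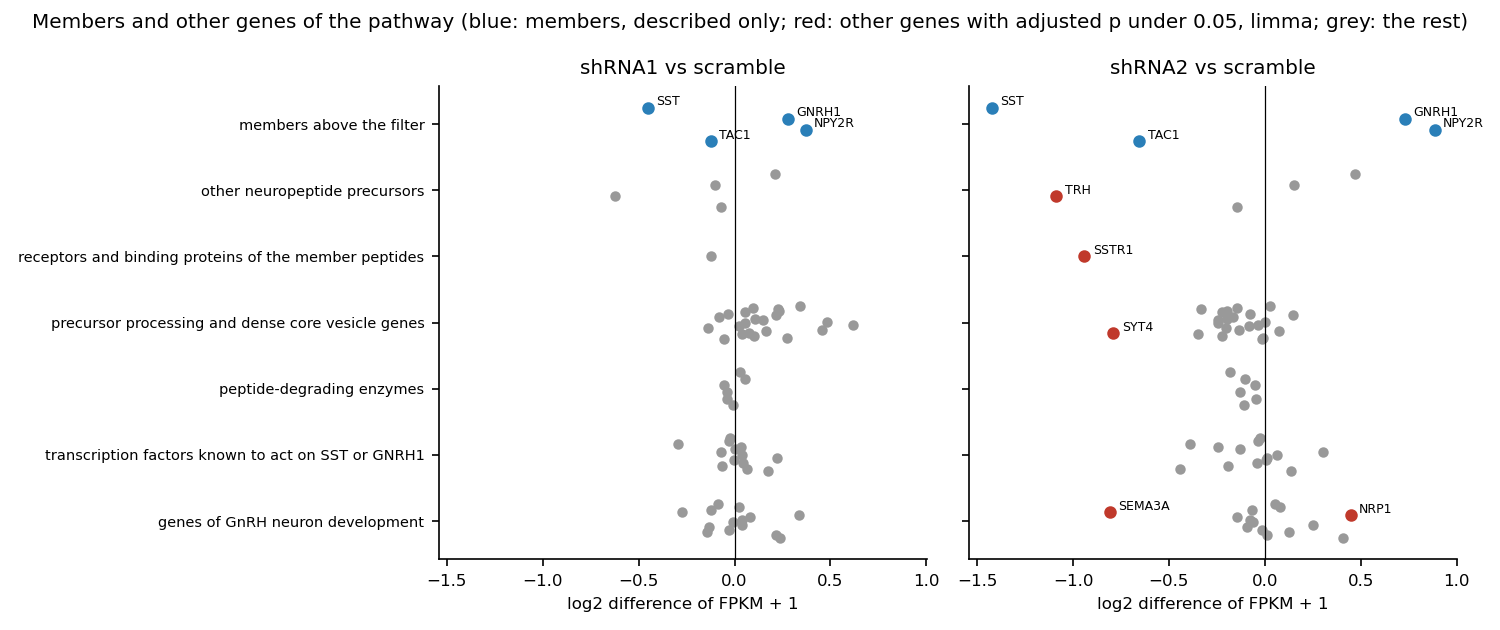
Differences from scramble in log2(FPKM + 1) for shRNA1 (left) and shRNA2 (right), 1 point a gene, for the 4 members above the filter (blue, given as a description) and the tested genes of the 6 lists (red where the limma adjusted p was under 0.05, grey otherwise). With shRNA2, TRH, SSTR1, SYT4 and SEMA3A lie to the left of 0 and NRP1 to the right; no point is red with shRNA1.

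**Figure D4:**
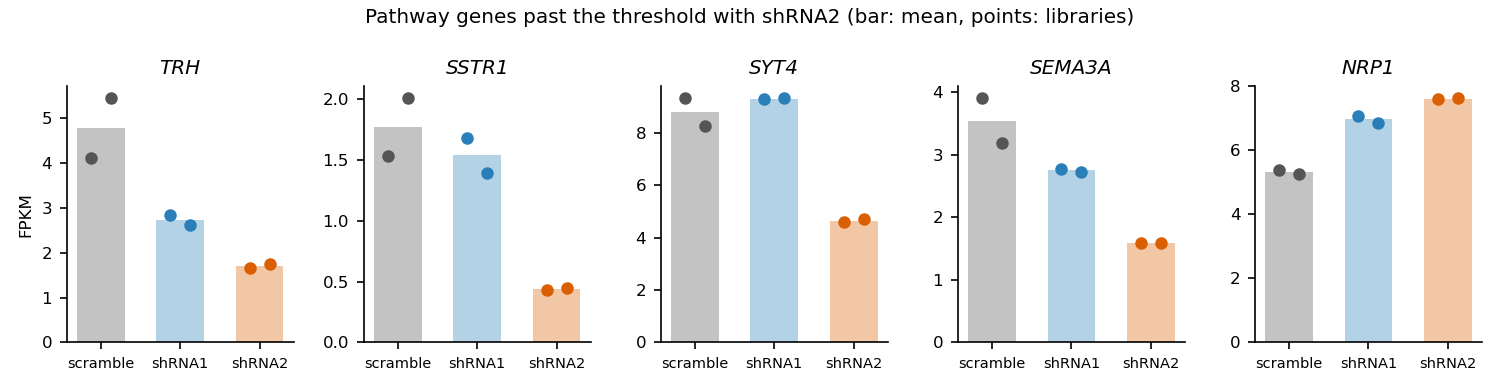
FPKM in each library (points) and the mean of 2 libraries (bars, from 0) for the 5 list genes called with shRNA2. TRH and SEMA3A step down from scramble over shRNA1 to shRNA2, SSTR1 and SYT4 are low with shRNA2, and NRP1 steps up.

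Markers of other cells also differed between the groups. The 8 mesenchymal markers summed to 6.05 and 6.79 FPKM with scramble, 1.56 and 1.44 with shRNA1, and 0.897 and 0.689 with shRNA2, and COL3A1, a fibrillar collagen, fell with both hairpins. The 8 choroid plexus markers summed to 21.4 and 23.3, 13.7 and 13.9, and 16.5 and 17.2, and TTR, the transthyretin of that epithelium, fell with both. Most of the choroid plexus sum with shRNA2 was OTX2, a homeobox factor that was not called and read 11.2 and 11.8 FPKM with scramble, 11.0 and 10.8 with shRNA1, and 14.1 and 14.7 with shRNA2. The means of TTR were 6.33, 0.641 and 0.0605 FPKM. The 8 pluripotency markers summed to 12.0 and 12.3, 13.5 and 13.5, and 22.0 and 21.7, and LIN28A, DPPA4 and SALL4 rose with shRNA2. POU5F1 and NANOG, which define that state, and TDGF1 were below the filter and also highest with shRNA2. POU5F1 read 0.00438 and 0.00397 FPKM with scramble and 0.0498 and 0.0371 with shRNA2. NANOG read 0.00795 and 0.00240 against 0.0687 and 0.0418, and TDGF1 0.00713 and 0.00862 against 0.186 and 0.241. With scramble the POU5F1 and NANOG values lay below the level of 3 reads on 1 kilobase, 0.0643 and 0.0389 FPKM. With shRNA2 that level was 0.0359 and 0.0375 FPKM. Both NANOG values and the first POU5F1 value lay above it, and the second POU5F1 value lay just below. All these values were low and are limited by depth. The limma adjusted p-values with shRNA2 (Benjamini-Hochberg) were 0.00867 for COL3A1 and TTR, 0.0244 for LIN28A, 0.0353 for DPPA4 and 0.0486 for SALL4. COL3A1 and TTR lay below 1 FPKM in every hairpin library, so they passed the filter of 1 FPKM only through scramble. The 8 neural crest and peripheral neuron markers summed to 4.93 to 5.50 FPKM, with none called. The sums of the neuron and the inhibitory interneuron markers were lowest with shRNA2, as SST, NPY, TAC1 and CRH were. No gene of either list was called. Not every marker moved that way: of 7 tested in each list, 2 neuron and 1 interneuron marker had positive shRNA2 differences. GAD1 read 4.34 and 4.15 FPKM with scramble and 4.76 and 4.56 with shRNA2, and SYT1 11.3 and 9.79 against 11.8 and 11.6. ELAVL4 had means of 1.35 and 1.45. The part of these differences in the levels of the peptide genes was not tested.

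Across the 6 libraries, the protein-coding genes whose log2 level was most like that of SST, out of 9761 compared, were DRG1, a GTP-binding protein (Pearson r = 0.995), EIF3F, a translation initiation factor subunit (0.995), NACC2, a transcriptional repressor (0.995), SON, a splicing cofactor (0.994), and XBP1, a transcription factor of the unfolded protein response (0.994). In all, 329 genes had an r above 0.95 with SST. For GNRH1 the leading genes were EFNA5, an ephrin ligand (0.996), TRIM71, an RNA-binding ubiquitin ligase of stem cells (0.996), TMEM255A (0.992), PCDH19, a protocadherin (0.992), and NPY2R (0.990), and 28 genes exceeded 0.95. DRG1 read 11.2 and 11.6 FPKM with scramble and 9.90 and 9.88 with shRNA2, a far smaller step than that of SST, since r does not measure size. These r values describe 6 points in 3 groups that share libraries and depth.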

How the data were processed

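Ribosomal RNA-depleted total RNA was sequenced from 6 libraries, per the labels' protocols (Trizol, RiboMinus and KAPA RNA HyperPrep). The deposited table gives, per the file headers, 1 FPKM for each gene symbol in each library. The submitters' processing notes name Trimmomatic 0.39, HISAT2 2.1.0, SAMtools 1.9, featureCounts 2.0.1 and GRCh38; an annotation or strand setting is not given in the sources used here. All 59151 entries were kept, including 29 symbols turned into dates and 4 duplicated entries.

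The 10 genes and all lists were chosen with earlier results of these data known. The 18162 genes averaging 1 FPKM or more were fitted as log2(FPKM + 1) with limma 3.58.1 in R 4.3.3 (trend, 3 groups, no block), with p-values adjusted over all of them (Benjamini-Hochberg) and a threshold of 0.05. Genes below the filter are described by their levels and reads. Named by rule were the 10 genes, RTN4, each list's called genes and the 4 most abundant of each pathway list. For SST and GNRH1 the rule added the 5 protein-coding genes with the highest Pearson r. Other genes in the text, such as GNRHR, RAX, NKX2-1, LHX6 and POU5F1, fall outside this rule and were named with their values at hand. The 6 pathway lists held other precursors, receptors and binding proteins, processing and vesicle genes, degrading enzymes, transcription factors and genes of GnRH neuron development. The 8 marker lists were those of forebrain progenitors, neurons, GABAergic interneurons, hypothalamus, neural crest, mesenchyme, choroid plexus and pluripotent cells. One marker of the first list is not reported here.

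Reads were recovered from FPKM steps with GENCODE v29 lengths. They include fractions, and a recovered length may be a multiple or divisor of the counted one, so reads are approximate. Poisson intervals are at 95%. Library totals of 46634855 to 83629504 reads set the precision. The script was tested on simulated data. Alternatives varied the pseudocount, filter, scaling, trend, replicate block and left-out library. Promoters and gene positions are from RefSeq (GRCh38.p14). No protein sequence was used here.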

Additional observations from a re-analysis of the deposited data

Results flagged for a closer look

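In 3 genes every library of one hairpin lay above both scramble libraries and every library of the other lay below; the difference between the hairpins was not tested for this pattern. CARTPT had a mean of 0.112 FPKM with shRNA1 and 0.0103 with shRNA2, against 0.0478 with scramble, on 0 to 13 reads a library. NLN, a peptide-degrading enzyme, had means of 4.36 with shRNA1 and 3.80 FPKM with shRNA2, against 4.17. IL17RD, an FGF signalling regulator among the genes of GnRH neuron development, had the opposite arrangement, with 6.45 with shRNA1 and 7.98 FPKM with shRNA2, against 7.23. With 2 libraries in each group no single library was tested for standing apart.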

How the results depend on the processing

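The members' differences kept their direction in all comparisons under every alternative that gave a value, except PENK with both hairpins together. That difference was 0.0030 without a filter and -0.0016 under quantile normalization without a filter. This last, and 2 other settings without a filter (pseudocount 0.1 FPKM, median-of-ratios scaling), were chosen after seeing the data. For NPY, CRH, GAL, PENK, CARTPT and VIP, below the filter, these 3 were the only alternatives. None of them left out a library, so the direction of these genes was not examined in that way. The number of genes called depended on the settings, and the cause was not tested. With both hairpins together 15 genes were called; the count was 0 without a filter, 35 at a mean of at least 5 FPKM, 28 with median-of-ratios scaling, 30 with quantile normalization, and, without a filter, 0 with pseudocount 0.1, 2 with median-of-ratios scaling and 0 with quantile normalization. Without 1 library it ran from 0 to 507, the highest without scramble replicate 1, the shallowest library. With shRNA1 6 were called; the count was 2 with pseudocount 0.1, 0 without a filter under any scaling or pseudocount, 3 at a mean of at least 5 FPKM, and 0 to 1 without 1 library. With shRNA2 114 were called; the count was 0 without a filter, 261 at a mean of at least 5 FPKM, 71 with quantile normalization, 35 without a mean-variance trend, and, without a filter, 0 with pseudocount 0.1, 3 with median-of-ratios scaling and 25 with quantile normalization. Without 1 library it ran from 0 to 2418, the highest again without scramble replicate 1, and 534 without scramble replicate 2. Between shRNA2 and shRNA1 no gene was called by limma (2929 at an unadjusted p under 0.05); 46 were at a mean of at least 5 FPKM, and 0 to 1029 without 1 library. For the lists with both hairpins together, where 0 genes were called, leaving out 1 library gave 0 to 1 called precursors, 0 to 2 processing genes and 0 to 2 genes of GnRH neuron development, and a mean of at least 5 FPKM gave 1 of the last.

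Median-of-ratios scaling and quantile normalization moved the shares of higher and lower calls: with shRNA2 the split was 34 higher and 80 lower, and 37 and 34 under quantile normalization; with both hairpins together it was 1 and 14, and 10 and 18 or 12 and 18 under the 2 scalings. Same-numbered libraries did not deviate together (correlations of -0.01 to 0.01 for 2 pairs of groups and -0.15 for scramble with shRNA2), so the numbers were not taken as pairing; with a replicate block, 1 gene was called with both hairpins together, 0 with shRNA1, 0 with shRNA2 and 0 between them. CARTPT and VIP rest on at most 13 reads in a library, and their differences are limited by depth.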

Other observations

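Further genes of the peptide system lay below the filter and are given as values, chosen after they were seen. ADCYAP1, the precursor of the peptide PACAP, read 0.480 and 0.609 FPKM with scramble, 1.25 and 1.18 with shRNA1, and 1.02 and 1.02 with shRNA2. Both hairpins lay above scramble for ADCYAP1, and shRNA1 was the higher of them. PDYN, the dynorphin precursor, read 0.984 and 1.03, 1.03 and 0.976, and 0.630 and 0.685, lowest with shRNA2 as SYT4 was. NTS, the neurotensin precursor, read 0.758 and 0.621, 1.01 and 0.721, and 0.669 and 0.664, with overlapping groups.

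Among receptors, GALR1, a galanin receptor, read 0.0922 and 0.114 FPKM with scramble, 0.183 and 0.181 with shRNA1, and 0.277 and 0.256 with shRNA2, while its ligand gene GAL was lower with both hairpins. SSTR2, a somatostatin receptor, read 0.494 and 0.441, 0.450 and 0.457, and 0.304 and 0.275, lowest with shRNA2 like SSTR1 and SST. RAX, a homeobox gene of the early eye field and hypothalamus, read 0.391 and 0.640 FPKM with scramble and at most 0.0161 in the 4 knockdown libraries.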
